A study of Oryza sativa Japonica Group with 4 samples.

Results

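Among 57258 probe sets of a rice microarray, 162 read at least 2-fold higher on average in roots given glutamine, with no overlap between the groups, yet fell short of 2-fold in at least 1 of the 2 same-numbered pairs of arrays. A probe set is a group of short probes designed against 1 transcript or a few similar ones. Members had both +glutamine arrays above both −N arrays, a difference of group means of at least 1 on the log2 scale, and a difference under 1 in pair 1 (+glutamine 1 minus −N 1) or in pair 2 (+glutamine 2 minus −N 2). Of 225 probe sets that met the first 2 conditions (0.393% of all), 52 reached 1 in both pairs and 173 did not. From these 173, 11 probe sets of 10 genes were left out by name (WRKY71, WRKY24, JAZ9, JAZ13, BHLH148, NAC068, PIN5, CML15, NRT2.2 and Agglutinin), which left the 162. The members were thus chosen by these same log2 differences and by the order of the 4 readings, so the sizes given below describe them and are no tests, and nothing is read from those percentages.

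All samples were roots of Oryza sativa ssp. japonica cultivar TNG67, a rice variety, for which the labels give no transgene or mutant allele. Seeds germinated in the dark for 3 days, and hydroponic culture without any nitrogen source followed for 2 weeks. At an age of 17 days they were moved for 30 min either into solution with 2.5 mM glutamine (+glutamine, 2 arrays) or into fresh solution without nitrogen (−N, 2 arrays). Every group was therefore nitrogen-starved, and the −N group controls for the transfer. The labels call the repeats biological and number them 1 and 2 in each group, without saying how many seedlings made up a sample or that equal numbers mark a shared batch. These are bulk samples of whole roots, in which fewer cells of a type and less RNA per cell cannot be told apart.

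Glutamine is the first organic product of ammonium assimilation in plant roots and carries reduced nitrogen between organs. In plants and microbes it also acts as a signal of nitrogen status, and roots can take it up from the surrounding solution. JAZ proteins repress jasmonate responses and are themselves induced by jasmonate as a feedback brake.

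The deposited values are 1 intensity per probe set and array, from 2.9 to 21202.3, and array medians were 19.7 and 22.2 with glutamine and 19.9 and 21.7 in −N. Across all probe sets limma called none higher with glutamine at a Benjamini-Hochberg adjusted p under 0.05 (0%, lowest adjusted p 1), and 505 had an unadjusted p under 0.05, 121 of them members. The members were selected on this same contrast, so their number among the 505 is largely set by the rule and is no support. The median difference over all probe sets was −0.01. Both +glutamine arrays lay above both −N arrays for 4785 probe sets (8.36%), and 19 (0.0332%) were at least 2-fold lower without overlap, 18 of them short of 2-fold in pair 1. The root silicon transporter transcripts Lsi1 (12.83 and 13.14 with glutamine, 12.84 and 13.07 in −N) and Lsi2 (9.45 and 10.15 with glutamine, 9.25 and 10.28 in −N) were bright on every array, in log2 intensity. Of 5 green shoot markers none separated the groups, and their summed log2 intensity was 13.49 and 13.55 with glutamine and 13.24 and 13.67 in −N. Their medians were 9.31 and 9.77 with glutamine and 8.23 and 10.01 in −N. These markers were thus not dim in the root samples, and −N 1 read below −N 2 in their median, opposite to the members described below. The 7 seed storage markers stayed dim, with medians of 2.56 and 3.00 with glutamine and 2.70 and 2.91 in −N. The 3′ to 5′ signal ratio of the Gapdh control was 6.20 and 4.43 with glutamine and 6.94 and 4.32 in −N, and that of actin 6.17 and 4.60 with glutamine and 6.73 and 4.98 in −N. Those ratios went with the repeat number, being higher on both repeats 1. Their part in the results below was not tested.

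The imbalance between the pairs was almost always of 1 kind. Of the 162 members, 152 fell short of 2-fold in pair 1 and 10 in pair 2. The mean difference ran from 1.00 to 2.05 with a median of 1.23 on the log2 scale. Its 2 parts were unlike, with a median of 0.69 in pair 1 and 1.88 in pair 2. The 52 probe sets at least 2-fold higher in both pairs leaned the same way, with medians of 1.21 in pair 1 and 1.74 in pair 2. In pair 1, 45 members differed by under 0.5, and in pair 2, 62 differed by over 2 and 12 by over 3. LOC4349395 had the smallest difference in pair 1 (0.03, against 2.03 in pair 2), and LOC4327172 the largest in pair 2 (3.37, against 0.31 in pair 1).

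**Figure D1:**
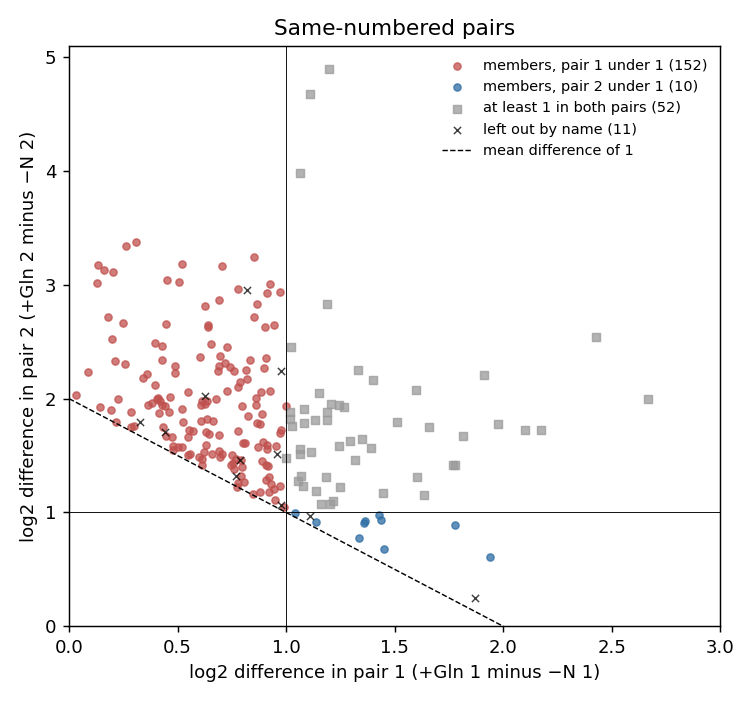
Log2 difference in pair 1 (+Gln 1 minus −N 1, horizontal) against pair 2 (+Gln 2 minus −N 2, vertical) for the 225 probe sets at least 2-fold higher with glutamine without overlap. Each symbol is 1 probe set, the solid lines mark a difference of 1 and the dashed line a mean of 1; the 152 members short of 1 in pair 1 fill the upper left, and only 10 lie at the lower right.

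Array by array, the members were high on both +glutamine arrays, intermediate on −N 1 and low on −N 2. Their median log2 intensity was 8.11 and 8.23 with glutamine, and 7.45 and 6.23 in −N. The low −N 2 reading was not shared by the array as a whole, whose median log2 intensity was 4.44 on −N 2 and 4.32 on −N 1. The array −N 2 gave the lowest of the 4 readings for 143 members (88.3%), and −N 1 gave it for the other 19. Over all probe sets −N 2 was lowest for 10688 of 57258 (18.7%), and among the 52 at least 2-fold higher in both pairs for 31. Since the rule requires −N below +glutamine, only the −N arrays could be lowest for a member or for 1 of the 52.

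**Figure D2:**
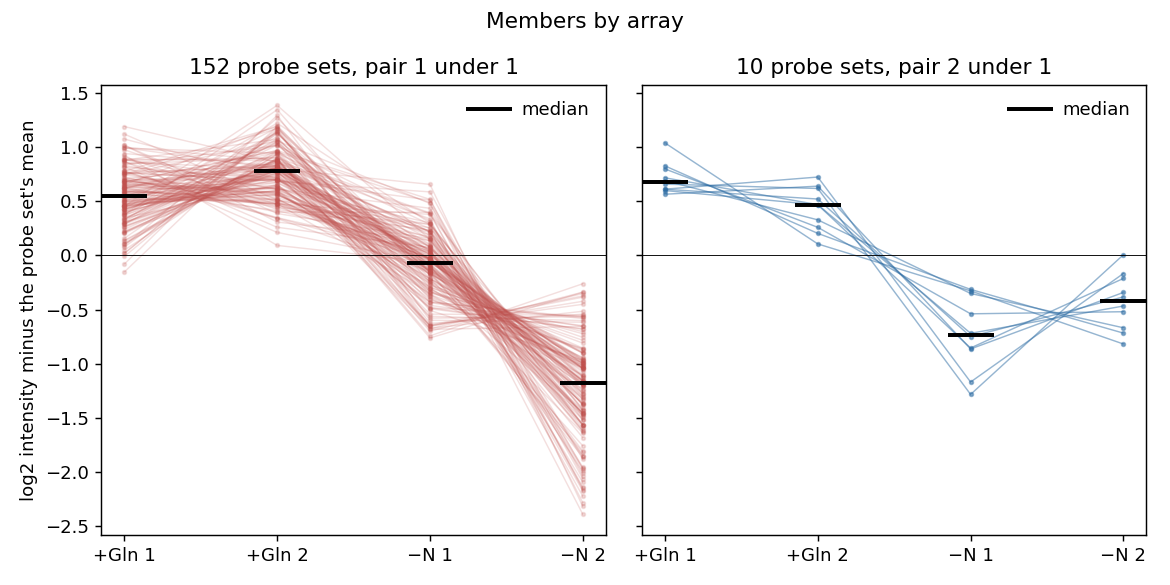
Log2 intensity of each member on the 4 arrays, as the difference from that probe set's mean over them. Thin lines are probe sets and thick bars medians, for the 152 members short of 1 in pair 1 (left) and the 10 short of 1 in pair 2 (right); at left the −N 2 readings lie lowest, at right the −N 1 readings mostly do.

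The difference between pair 2 and pair 1, on which the members were selected, is by arithmetic the sum of the gap between the −N repeats and the gap between the +glutamine repeats. The 2 +glutamine arrays lay within 0.5 of each other for 112 members, and over 1 apart for 7. The 2 −N arrays lay within 0.5 for 35 members and over 1 apart for 92. Repeat 2 exceeded repeat 1 with glutamine by a median of 0.17 (range −0.93 to 1.37). Repeat 1 exceeded repeat 2 in −N by a median of 1.09 (range −1.29 to 2.97). The −N 2 reading was at least 1 below each of the other 3 arrays for 90 members. Such a reading makes pair 2 at least 1, so by the rule all 90 had to be short of 2-fold in pair 1.

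Such isolated low readings of −N 2 occurred for 296 of all 57258 probe sets, 7 of them among the 52 at least 2-fold higher in both pairs. Only 34 had −N 1, 4 had +glutamine 1 and 32 had +glutamine 2 as the isolated low array. High readings were isolated too, at least 1 above each other array for 38 probe sets on +glutamine 2, 8 on +glutamine 1, 168 on −N 2 and 110 on −N 1. In all, −N 1 exceeded −N 2 by at least 1 for 1229 probe sets, of which 90 (7.32%) were members, and for 458 of them +glutamine 1 also exceeded +glutamine 2 by at least 1. Of 2435 probe sets with −N 2 at least 1 above −N 1, 2 were members. The members' differences had standard errors of 0.22 to 0.93 by limma, with a median of 0.42.

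**Figure D3:**
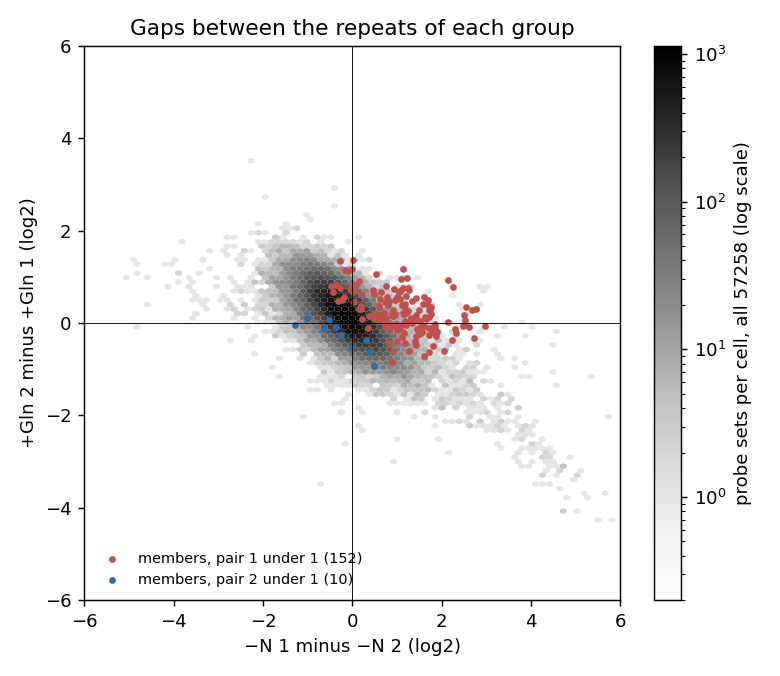
Gap between repeats in −N (−N 1 minus −N 2, horizontal) and with glutamine (+Gln 2 minus +Gln 1, vertical), both in log2 units. Grey cells count all 57258 probe sets on a log scale and coloured points are members; the members short of 1 in pair 1 lie to the right of and above the grey diagonal, since a positive gap on either axis widens pair 2.

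The 152 members short of 2-fold in pair 1 reached that imbalance in 3 ways. In 89 of them both gaps contributed, with −N 1 above −N 2 (median gap 1.08) and +glutamine 2 above +glutamine 1 (median gap 0.34). In 51 the imbalance lay wholly in −N, with a median gap of 1.51 there, while +glutamine 2 was no higher than +glutamine 1. In the other 12 −N 1 was no higher than −N 2 (median gap −0.25), and the difference lay between the +glutamine repeats (median gap 0.78). For 125 of the 152, more than 50% of the difference between the pairs came from the −N arrays, with a median share of 85.0%.

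Of the 162 probe sets, 92 were annotated with 1 gene (56.8%, against 39.2% of all probe sets), 1 with several and 69 with none. They stand for 91 genes, and 9 of these carry a name beyond a locus number, so most members are known here only by locus or probe set. Of the 52 probe sets at least 2-fold higher in both pairs, 40 (76.9%) had 1 gene. Probe sets of the array's OsAffx designs made up 42 members (25.9%), against 44.5% of all probe sets. Designs marked _x, whose probes may bind other transcripts too, made up 24 (14.8%), against 12.5% of all. Members were mostly well above the dim end of the array, with 155 above the median of all probe sets in mean log2 intensity and 101 above the upper quartile. Their mean intensity ran from 15.1 to 3877 with a median of 179, and 13 members stayed under 30.

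Named members included 2 jasmonate repressors, JAZ5 and JAZ10. JAZ5 read 7.74 and 8.25 in log2 intensity with glutamine, against 7.36 and 6.29 in −N. The reading of −N 2 stood over 1 below −N 1, and −N 1 lay 0.38 below +glutamine 1. Group means were 7.998 ± 0.36 with glutamine and 6.83 ± 0.75 in −N (SD, n = 2 each), a difference of 1.17 ± 0.42 (SE), with 0.38 in pair 1 and 1.96 in pair 2. JAZ10 read 9.97 and 9.36 with glutamine, against 9.17 and 7.90 in −N, a difference of 1.13 ± 0.48 (SE). Here repeat 1 was the higher reading in both groups, and the pairs gave 0.79 and 1.46. A brighter probe set of JAZ10, from the same design cluster and so no separate observation, read 11.48 and 10.87 with glutamine, against 10.82 and 9.68 in −N. Its difference of 0.92 falls just under the threshold of 1, and its pairs gave 0.66 and 1.19.

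JAZ10 lies in a row of JAZ genes in the gene order. Its neighbour JAZ11 read 10.47 and 10.11 with glutamine, against 10.16 and 8.98 in −N, a difference of 0.71 (0.30 in pair 1 and 1.12 in pair 2). Beyond it lies JAZ9, with a difference of 1.61 (0.98 in pair 1 and 2.24 in pair 2), which is among the genes left out by name. All 3 genes read lowest on −N 2.

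Of the jasmonate synthesis and JAZ genes as a whole, 37 were measured and JAZ5 and JAZ10 are the members among them, with JAZ9 and JAZ13 left out by name. In 13 of the 37 both +glutamine arrays lay above both −N arrays, and in 3 below, against 1807 (10.1%) and 1616 (9.03%) of 17905 genes with 1 probe set each. None of the 37 passed the test. Their median difference was 0.26, against −0.01 over all genes, with 0.15 in pair 1 and 0.36 in pair 2. The lipoxygenases CM-LOX1 and CM-LOX2, enzymes that oxidise fatty acids, had differences of 0.95 and 0.99 and so came close to the threshold. JAZ8 and JAZ12 had differences of 0.69 and 0.75. These lipoxygenase and JAZ genes were picked from the higher side of the list and do not stand for the 37 as a whole.

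**Figure D4:**
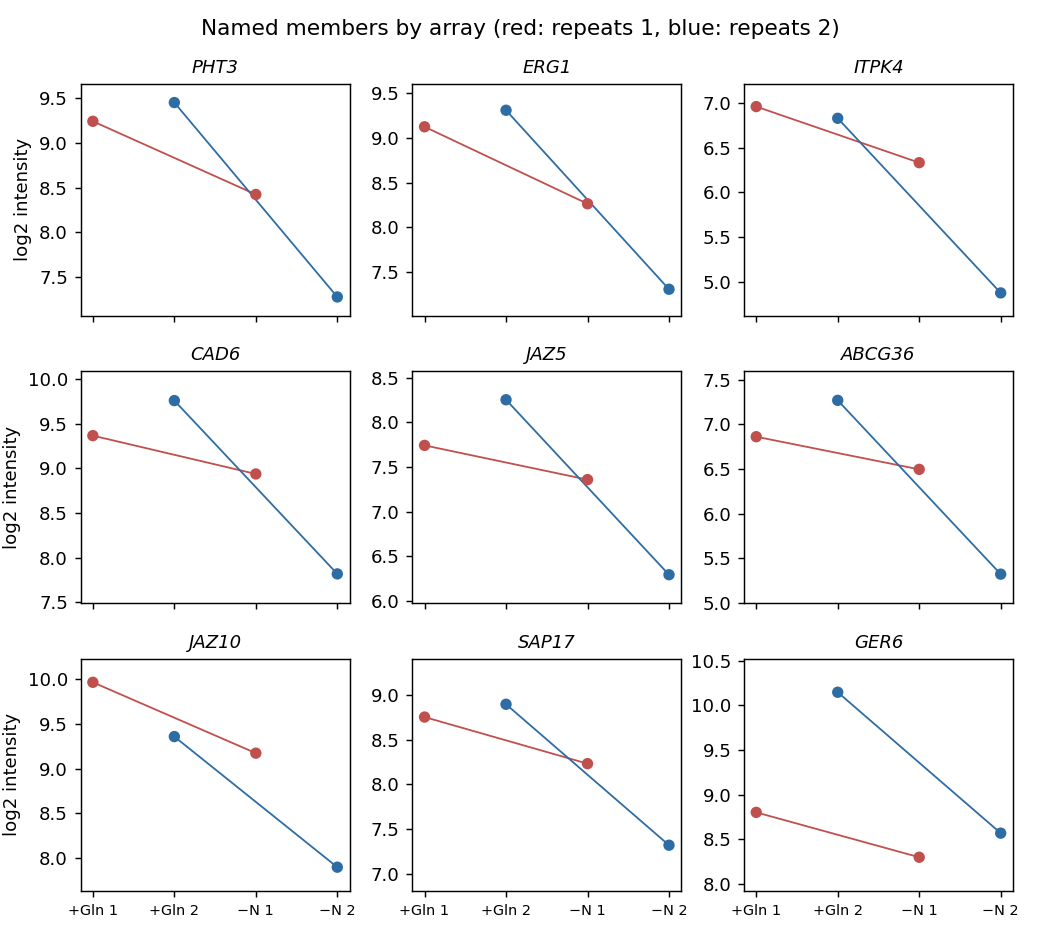
Log2 intensity of the 9 members with a gene name on each of the 4 arrays. Each line joins 2 arrays with the same repeat number, red for repeats 1 and blue for repeats 2; in all but GER6 the lowest point is −N 2, and in GER6 +Gln 2 stands above the rest.

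ERG1 encodes a small C2-domain protein first described as induced by a fungal elicitor. It read 9.13 and 9.31 with glutamine, against 8.27 and 7.31 in −N, a difference of 1.43 ± 0.36 (SE) that was 0.86 in pair 1 and 2.00 in pair 2. ERG1 thus came close to 2-fold in its weaker pair. Its group means were 9.22 ± 0.13 with glutamine and 7.79 ± 0.68 in −N (SD, n = 2 each). The 2 measured genes next to it differed by −0.13 and 0.10.

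PHT3 had the largest difference among the named members. Its symbol is used for more than 1 kind of protein, so no role is given. It read 9.24 and 9.45 with glutamine, against 8.42 and 7.28 in −N, a difference of 1.498 ± 0.41 (SE) with 0.82 in pair 1 and 2.18 in pair 2. By its symbol PHT3 also falls in the phosphate transport list, where it was the single member among 19 genes. Apart from it, none of those genes lay higher without overlap and 1 lay lower, and the list had a median difference of 0.09. Whether PHT3 belongs in that list is not known here, so its place there is not read as a result.

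ABCG36 and CAD6 act on transport and cell walls. ABCG36 encodes a pleiotropic-drug-resistance type ABC transporter of the kind that exports small molecules from plant cells. It read 6.86 and 7.27 with glutamine, against 6.50 and 5.32 in −N, a difference of 1.16 ± 0.43 (SE). The gap was 0.37 in pair 1 and 1.95 in pair 2, so that repeat 1 carried little of it. A second, dim probe set of ABCG36 gave a difference of 0.21 at log2 readings of 2.79 and 2.41 with glutamine, and 2.51 and 2.26 in −N. Its relative ABCG37, 2 places away in the gene order, read 8.94 and 10.07 with glutamine, against 8.48 and 9.09 in −N, and its groups overlapped. CAD6 belongs to the cinnamyl alcohol dehydrogenases, enzymes of the last step to lignin monomers. It read 9.37 and 9.76 with glutamine, against 8.94 and 7.82 in −N, a difference of 1.18 ± 0.42 (SE) with 0.43 in pair 1 and 1.94 in pair 2.

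ITPK4 and SAP17 belong to signalling and stress families. ITPK4, an inositol phosphate kinase, read 6.96 and 6.83 with glutamine, against 6.33 and 4.87 in −N, a difference of 1.29 ± 0.49 (SE). Its +glutamine readings were 0.13 apart and its −N readings over 1 apart, the widest −N gap of the 9 named members. SAP17, a stress-associated zinc-finger protein of the A20/AN1 family, read 8.75 and 8.90 with glutamine, against 8.23 and 7.32 in −N. Its difference was 1.05 ± 0.35 (SE), with 0.52 in pair 1 and 1.58 in pair 2.

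GER6, a germin-like protein of the cell wall, was the exception among the named members. It read 8.80 and 10.15 with glutamine, against 8.30 and 8.57 in −N. The outlying array was +glutamine 2, over 1 above each other reading, and the −N repeats were 0.27 apart. Group means were 9.47 ± 0.95 with glutamine and 8.43 ± 0.19 in −N (SD, n = 2 each), a difference of 1.04 ± 0.47 (SE). In all, 7 members had +glutamine 2 over 1 above +glutamine 1, among them LOC4352496, LOC4341405, LOC4324791 and 3 probe sets with no annotated gene. LOC4341405 read 8.28 and 9.65 with glutamine, against 7.76 and 7.74 in −N, so its −N repeats were nearly equal.

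The members with the largest mean difference carried no gene name. The largest of all, a probe set with no annotated gene, was the single member with a log2 difference of at least 2, with intensities of 524.1 and 417.3 with glutamine, against 290.4 and 43.9 in −N, a log2 difference of 2.05 ± 0.86 (SE). LOC4334017 followed with 582.1 and 773.1 with glutamine, against 306.0 and 96.3 in −N, a log2 difference of 1.97 ± 0.56 (SE). In both, on the log2 scale, the −N repeats were further apart than −N 1 was from either +glutamine array. The next 8 by size had log2 differences of 1.80 to 1.95, with 0.26 to 0.97 in pair 1 and 2.84 to 3.37 in pair 2. They were LOC4333197, LOC4342314, LOC4342313, LOC4327172 and 4 probe sets with no annotated gene. The difference of LOC4342314 rests on a dim −N 2 reading, at an intensity of 5.0. LOC4333197 had nearly equal +glutamine readings, with a log2 intensity of 8.16 ± 0.03 with glutamine and 6.22 ± 1.77 in −N (SD, n = 2 each).

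The most unequal pairs lay in members that pair 1 hardly separated. A probe set with no annotated gene differed by 0.26 in pair 1 and 3.34 in pair 2, and LOC4327172 by 0.31 in pair 1 and 3.37 in pair 2. LOC4327172 was also among the brightest members, at intensities of 2268.9 and 4318.9 with glutamine, against 1832.5 and 416.4 in −N. LOC4349181 (0.13 in pair 1, 3.17 in pair 2), another unannotated probe set (0.16 in pair 1, 3.13 in pair 2) and LOC4351545 (0.20 in pair 1, 3.12 in pair 2) completed the 5 most unequal. In LOC4351545 the log2 readings were 6.96 and 6.90 with glutamine, against 6.76 and 3.79 in −N, so 3 arrays were alike and −N 2 stood alone.

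The brightest member, an _x probe set with no annotated gene, was at the other end of the imbalance. Its intensities were 5465.0 and 5852.7 with glutamine, against 2867.9 and 2462.7 in −N, a log2 difference of 1.09 ± 0.22 (SE) with 0.93 in pair 1 and 1.25 in pair 2. LOC4331883 was also bright and even within −N, at 1561.3 and 2142.9 with glutamine, against 828.0 and 805.4 in −N. Both missed 2-fold in pair 1 by a small margin.

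The 10 members short of 2-fold in pair 2 had mean differences of 1.02 to 1.33, with 1.04 to 1.94 in pair 1 and 0.61 to 1.00 in pair 2. In 7 of them −N 1 was the lowest array and in 3 it was −N 2. LOC4332436 read 10.03 and 10.14 with glutamine, against 8.25 and 9.25 in −N, the mirror image of the common pattern, with 1.78 in pair 1 and 0.89 in pair 2. LOC4327369, a dimmer probe set, read 5.57 and 5.53 with glutamine, against 3.63 and 4.92 in −N. In LOC4343768 all repeats lay close together, at 8.93 and 8.68 with glutamine, against 7.49 and 7.75 in −N, a difference of 1.19 ± 0.23 (SE). LOC4335417 read 8.44 and 8.52 with glutamine, against 7.01 and 7.54 in −N, and a probe set with no annotated gene read 5.51 and 4.58 with glutamine, against 4.15 and 3.66 in −N. The other 5 were LOC4334054, LOC4334216, LOC4324350, LOC4327669 and LOC4347354, with differences of 1.02 to 1.13.

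Both thresholds ran through a continuous range of values. Just inside the mean difference of 1 lay an unannotated _x probe set (1.00) and LOC4340682 (1.003), and just outside lay LOC9271957 and LOC4347006 (0.996 each). Just inside the pair threshold lay LOC4331157 (0.998 in pair 1) and LOC4347354 (0.996 in pair 2), and just outside lay LOC4324301 (1.002 in pair 1) and LOC4328899 (1.018 in pair 1). Of the members, 42 had a mean difference under 1.1, 72 under 1.2 and 33 of at least 1.5. A further 69 probe sets met the rule except for a mean difference of 0.9 to 1.

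Without −N 2, the difference between the +glutamine mean and −N 1 alone had a median of 0.76 over the members and was at least 1 for 40 of them. Of these 40, 33 were short of 2-fold in pair 1 and 7 in pair 2, and GER6 was the single named member. Leaving out another array kept more of them, with 149 at least 1 without −N 1, 148 without +glutamine 1 and 122 without +glutamine 2. That no difference reached 0 with an array left out is fixed by the rule, which keeps both +glutamine arrays above both −N arrays. Of the 52 probe sets at least 2-fold higher in both pairs, 44 were at least 1 without −N 2, 51 without −N 1, 48 without +glutamine 1 and 50 without +glutamine 2. The contrast between the members and the 52 also follows in part from the rule, which put the unequal probe sets among the members.

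Among the named members without −N 2, ERG1 kept 0.95 and PHT3 0.92, and GER6 1.17. JAZ5 kept 0.64, CAD6 0.63, SAP17 0.59, ABCG36 0.57, ITPK4 0.56 and JAZ10 0.49. GER6 depended on the other group instead, at 0.37 without +glutamine 2. Whichever array was left out, 16 members stayed at or over 1, including LOC4334017, LOC4346997, LOC4325227, LOC4325228, LOC4344624, LOC4347744, LOC4324704 and LOC4343768.

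**Figure D5:**
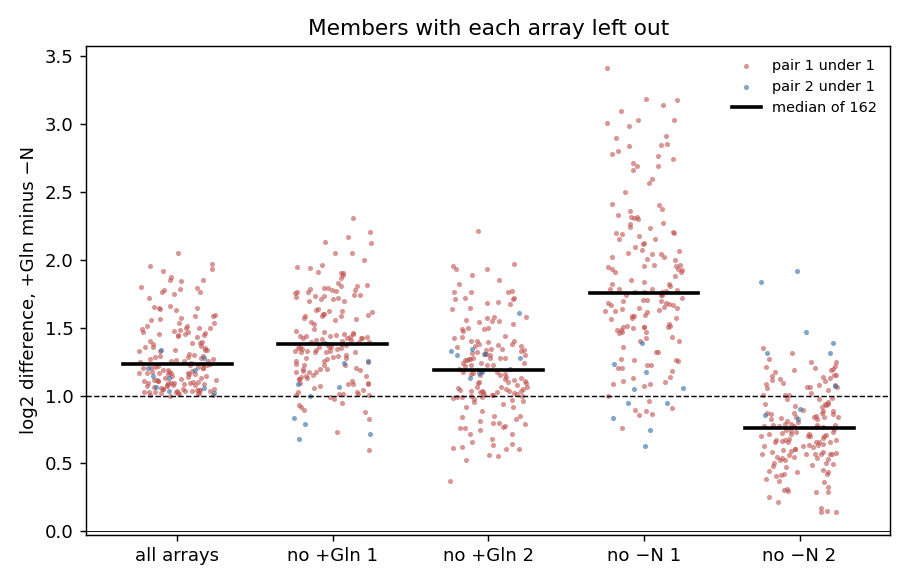
Log2 difference between the +glutamine and −N means of each of the 162 members, with all arrays and with each array left out in turn. Points are probe sets, thick bars medians and the dashed line a difference of 1; without −N 2 the median is 0.76 and 40 points stay at or above the line.

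Other probe sets of the same genes give a further reading of 11 member genes, 15 probe sets in all, which the rule did not select. Of the 15, 10 were higher with glutamine on average, 5 without overlap of the groups (8.36% over all probe sets), and their median difference was 0.25 (range −0.20 to 1.26). At least 1 was reached by 2 of them, both of the _x kind and from the same design cluster as their gene's member. Probe sets that share a design cluster with the member are not separate observations. For LOC4342314 the _x probe set read 6.64 and 5.66 with glutamine, against 5.91 and 3.88 in −N, so −N 2 was again lowest but the groups overlapped. For LOC4345414 the readings were 6.75 and 5.74 with glutamine, against 6.13 and 4.26 in −N, with the same order. LOC4337457 had a bright further probe set, at 10.92 and 11.08 with glutamine, against 10.94 and 11.07 in −N, a difference of −0.003. Of the 8 further probe sets above the array's median level, 5 were higher and 3 without overlap.

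Some members read the same transcript or close relatives. LOC4332204 is the gene with 2 member probe sets, whose differences were 1.26 (0.39 in pair 1 and 2.12 in pair 2) and 1.00 (0.22 and 1.79). In all, 12 members shared a design cluster with another, in 6 pairs. Another such pair, with no annotated gene, had differences of 1.53 and, for its _x counterpart, 1.36. Such pairs are not separate observations.

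Placed in the gene order of RefSeq's rice assembly, 12 of the 91 member genes (13.2%) had another member within 5 genes, in 6 runs, and 5 of the runs were direct neighbours. The share was 10.5% (4 of 38) for the genes at least 2-fold higher in both pairs. A larger set gives more such neighbours, so these shares are not directly comparable. No share was computed for other sets of genes, so whether members lie closer together than other genes was not tested. LOC4342313 read 9.56 and 9.73 with glutamine, against 9.04 and 6.54 in −N, and its neighbour LOC4342314 read 5.41 and 5.29 with glutamine, against 4.63 and 2.32 in −N. Both had an isolated −N 2 reading, at different levels. That of LOC4342314 was dim, under the lower quartile of all probe sets on −N 2 (3.09). The pair LOC4325227 and LOC4325228 had differences of 1.37 and 1.46 and stayed over 1 whichever array was left out. The other direct neighbours were LOC4326919 with LOC4326920 (1.205 and 1.489), LOC4345561 with LOC4345562 (1.23 and 1.24) and LOC4346786 with LOC4346787 (1.496 and 1.483). The sixth run held LOC4347744 (1.35) and PHT3 (1.498), and the measured gene between them, LOC4347745, differed by −0.02. Whether neighbours share probe sequence was not tested.

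The lists of other pathways held no member, in part because the rule removes by name CML15 (calcium list), NRT2.2 (nitrate list), NAC068 (NAC list), BHLH148 (bHLH list), PIN5 (auxin list), WRKY71 and WRKY24 (WRKY list). The lists were also drawn by symbol, and 9 of the 91 member genes carry a name, against 2478 of 17905 genes measured. An unnamed member could not enter any list, so nothing about the members is read from this absence. The lists' counts without overlap stand beside 10.1% higher and 9.03% lower over all genes. Among 79 calcium sensors and kinases 12 lay higher and 11 lower, with a median difference of 0.03. In the nitrate and ammonium uptake and assimilation list 7 of 30 lay higher and 1 lower, with a median of 0.10. For chitinases and pathogenesis-related genes the counts were 8 higher and 0 lower of 18, with a median of 0.23. Heat shock genes counted 6 higher and 6 lower of 43, auxin genes 6 and 2 of 61, and AP2/ERF and DREB factors 2 and 3 of 13. NAC factors counted 4 higher and 0 lower of 8, and cytokinin genes 7 and 0 of 29. The WRKY list held 6 genes, 3 of them higher, with a median of 1.19, WRKY71 and WRKY24 among them. WRKY76 read 8.59 and 7.41 with glutamine, against 8.30 and 4.35 in −N, so −N 2 stood alone there too, but the groups overlapped and it is no member. No gene of any list passed the test.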

How the data were processed

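The authors deposited 1 intensity per probe set on a linear scale for each of 4 arrays. Per the labels' protocols, biotinylated cRNA was made from 10 ug of total root RNA. The submitters' processing notes name GCOS and RMA. Their roles, versions and the scaling are not given in the sources used here, and no detection calls were used, so distance above background is unknown. Log2 was taken with no further normalization, and 123 control probe sets were left out. Genes came from the platform annotation, matched by gene number to RefSeq's table of assembly ASM3414082v1, which served for names and gene order only. The number of arrays limits the precision.

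Group differences and standard errors came from limma 3.58.1 (R 4.3.3), fitted on group alone, and Benjamini-Hochberg adjustment over all 57258 probe sets. Gene lists were symbol patterns, with the brightest probe set per gene. The members and lists were chosen with earlier results of these data known. Named were members with a gene symbol, the 10 largest overall and 5 largest per class, the 5 most unequal, those nearest each threshold and genes with several member probe sets. Members with no annotated gene are given by their values without a probe set number. Others named were chosen after their values were seen, as were the views of neighbouring genes and of further probe sets. Promoter motifs and protein signatures were not analysed here. Figures were drawn with matplotlib 3.10.9.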

Additional observations from a re-analysis of the deposited data

How the results depend on the processing

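With 2 arrays a group, limma called 0 probe sets in every setting except 1. The labels do not say that equal numbers mark a shared batch, although over all probe sets the repeats' differences correlated at 0.675 between the groups. With the replicate number as a replicate block 0 were called (2480 at an unadjusted p under 0.05), and with that replicate block and a trended, robust prior 24, of which 1 was a member (the brightest) and 23 were at least 2-fold higher in both pairs. The cause of that change was not tested. With the block, the residual of a probe set is the difference between its 2 pairs. The rule sorted members by their pairs, so the split of these 24 follows in part from it and nothing is read from it. The 225 probe sets at least 2-fold higher became 470 without +glutamine 1, 312 without +glutamine 2, 766 without −N 1 and 346 without −N 2, and the 162 members at least 2-fold higher became 40 (without −N 2) to 149. Setting the mean difference at 1.5 left 33 members, 33 short in pair 1 and 0 in pair 2, and 1 probe set per gene left 85, of which 76 fell short in pair 1 and 9 in pair 2; both settings admit fewer probe sets by construction. Median centring gave 153 members and quantile normalization 152. The log2 differences of the 33 named members ran from 0.17 to 3.41 over 391 values under the alternatives; the members' lack of overlap fixes their direction when an array is left out.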
